A study of Mus musculus with 36 samples.

Results

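The B-cell antigen receptor and its partners were followed through 9 genes: Cd79a and Cd79b, Ms4a1, Cr2, Cd22, Cd72, Blnk, Btk and Ly6d. They were found by gene name among the non-control probes of the array, where 14 of 39429 probes and 9 of 31093 named genes belonged to them. All 9 genes and all 14 probes passed the filters on background and on variation, as did 15065 genes in all.

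Blood from 36 male C57BL/6J mice, 8 to 10 weeks old, was taken 7 days after exposure and hybridized to 1 single-colour Agilent array per mouse, with 6 mice in each of 6 groups. Control mice were sham-irradiated. The X-ray group received 3 Gy of x-rays, and the Mixed 5%, Mixed 15%, and Mixed 25% groups received 3 Gy in all, of which 0.15, 0.45, and 0.75 Gy came from neutrons. The Neutron group received 0.75 Gy of neutrons and no x-rays; its array titles give the neutron share as 100%, while the methods of the study give 83%, the remainder being photons from the neutron source. Neutron and Mixed 25% therefore shared the neutron dose and differed in the x-rays and in the total dose. The design had 1 time point. The arrays had between 15547 and 21274 probes well above background. The B-cell transcription factor Ebf1 lay at 5.11 on the log2 scale in Control, relative to the median probe of each array, and markers of red cells, platelets, neutrophils, and T cells were on average above that median on every array.

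The B-cell receptor is a membrane immunoglobulin that binds antigen and a signalling pair, CD79A and CD79B, that carries the message into the cell. Kinases start the signal from this pair, the adaptor BLNK gathers the next enzymes, and the kinase BTK passes the signal on towards calcium release. Complement receptor CR2 lowers the threshold for activation as a co-receptor, whereas CD22 and CD72 are inhibitory receptors that dampen it. MS4A1, known as CD20, is a membrane protein of mature B cells, and LY6D is a surface protein that marks commitment to the B lineage in the mouse. Resting B cells are among the blood cells that are most easily killed by radiation. Expression in whole blood reads both how many B cells there are and how much RNA each holds, and fewer B cells and less RNA per cell cannot be told apart here.

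Of the 9 genes, 5 had more than 1 probe, and the probe that was brightest over all arrays represented its gene. The probes of Cr2, Cd22, and Cd79a are shown because the text returns to their disagreements. Each line gives the first 30 bases, 5′ to 3′, as the scanner files hold them, and the coordinates are those of the array annotation in mm9. The Cr2 probes lie at chr1:196965532-196965591 (used) and chr1:196963012-196963071 (other), and the Cd22 probes at chr7:31651249-31651308 (used) and chr7:31665113-31665172 (other), all on the minus strand. The annotation places the Cd79a probe used at chr12:53180558-53180617 and leaves the other Cd79a probe without a position, while RefSeq has the Cd79a gene on chr7. Whether that probe also matches elsewhere in the genome was not tested.
Cr2 used: tggcctacagattgttcttgtgatatttca
Cr2 other: catgacaataatggactagaactctgaact
Cd22 used: gaaaaatgaaaaaccaaccaaccaaccaaa
Cd22 other: agggcctgctgtgttttttcatctacttta
Cd79a used: cctcctcccagatctgtcatggccacttaa
Cd79a other: tagaaaacaacatattaaaacgctcctgtg

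The RefSeq promoter table (GRCm38.p6) held 6 of the 9 genes, and not Cd79b, Ms4a1, or Ly6d. The 250 bases before the start of each were searched on both strands for motifs of factors of the B lineage: the octamer ATGCAAAT, the EBF-type pair CCCNNGGG, the PU.1 core GAGGAA, and the E-boxes CACCTG and CAGCTG. Among 32851 promoters of the same length, these letters occurred in 1.6, 11.8, 23.3, 17.2, and 13%, respectively. The octamer was found in Blnk alone of the 6, on the minus strand and starting 130 bases before the start. CACCTG was found in Cd79a, Cd22, Cr2, and Blnk, the PU.1 core in Cd79a and Cd72, and the EBF-type pair in Cd22. Btk held none of these letters in this window. The promoters of Cd79a (chr7:24897247-24897496, plus strand), Blnk (chr19:40994222-40994471, minus strand), and Cr2 (chr1:195176720-195176969, minus strand) are shown, the first pair because these genes moved together between mice and the third because its gene did not move with them. Capitals mark the motifs.
Cd79a: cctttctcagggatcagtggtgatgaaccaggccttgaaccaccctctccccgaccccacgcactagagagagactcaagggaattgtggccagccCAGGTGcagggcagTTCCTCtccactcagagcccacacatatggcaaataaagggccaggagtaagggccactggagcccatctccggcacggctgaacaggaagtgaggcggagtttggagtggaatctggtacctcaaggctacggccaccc
Blnk: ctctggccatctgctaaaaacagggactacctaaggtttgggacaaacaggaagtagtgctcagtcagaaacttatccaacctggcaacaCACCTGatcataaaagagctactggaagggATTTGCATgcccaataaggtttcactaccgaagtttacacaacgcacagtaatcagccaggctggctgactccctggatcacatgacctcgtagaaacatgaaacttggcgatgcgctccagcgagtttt
Cr2: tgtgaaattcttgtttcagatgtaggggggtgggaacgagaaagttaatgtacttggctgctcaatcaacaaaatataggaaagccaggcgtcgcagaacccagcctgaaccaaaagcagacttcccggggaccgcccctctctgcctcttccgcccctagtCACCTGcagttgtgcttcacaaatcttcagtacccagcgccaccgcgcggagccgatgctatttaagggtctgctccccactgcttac

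After x-rays and all mixed fields, each of the 9 genes fell below the controls. The fall was between 2.93-fold (Btk) and 33.1-fold (Cd79a) after x-rays. After neutrons alone the mean of each of the 9 genes was lower, by between 1.6-fold (Btk) and 3.67-fold (Cd72), and 8 of the 9 passed the thresholds given below. These folds are those of the probes used. The other Cd79a probe fell 20-fold after x-rays and 4.31-fold after neutrons. With limma on the 12 arrays of a comparison, a gene was called where its p was under 0.001 and its p adjusted over all 15065 genes (Benjamini-Hochberg) was under 0.05. Against Control, 9 of the 9 genes were lower after x-rays, where 16.9% of all genes were called lower. The counts were 9 of 9 at Mixed 5% (14.1% of all genes), 9 of 9 at Mixed 15% (16.5%), 9 of 9 at Mixed 25% (13.9%), and 8 of 9 at Neutron (20.5%). The median log2 difference of the 9 genes from Control was -4.38 after x-rays, -3.87 at 5%, -4.27 at 15%, -4.25 at 25%, and -1.53 after neutrons, beside medians over all genes of -0.11, -0.08, -0.02, -0.12, and -0.12. All 6 exposed mice lay below all 6 controls for 9 of the 9 genes after x-rays (17% of all genes), at 5% (13.7%), at 15% (16.1%), and at 25% (15.3%), and for 8 of the 9 after neutrons (20.3%). All comparisons with Control share the same 6 control arrays.

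**Figure D1:**
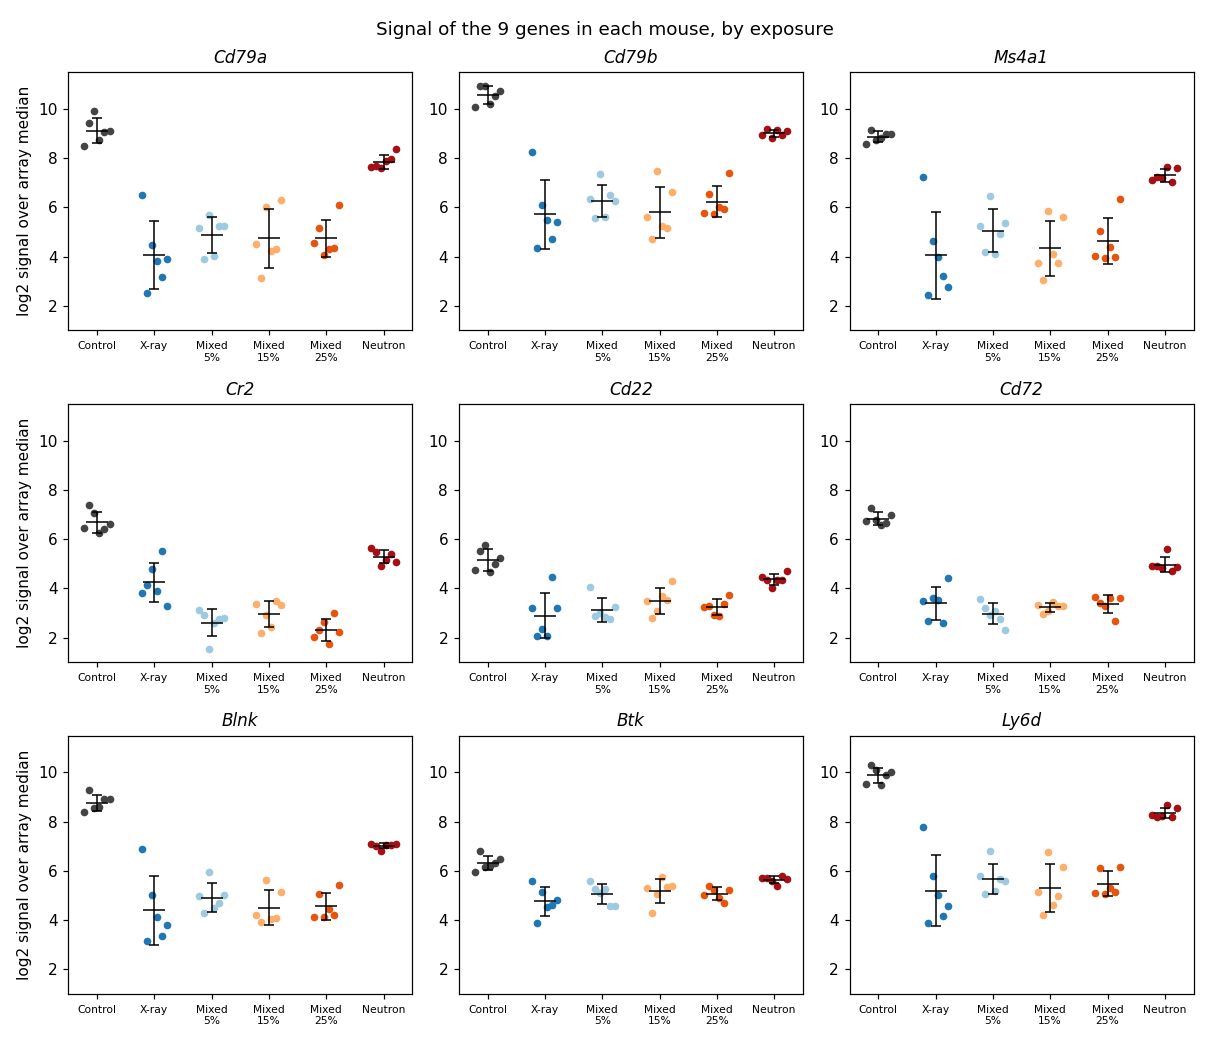
Signal of the 9 genes on each of the 36 arrays (points, 1 per mouse; vertical axis, log2 signal relative to the array median; horizontal axis, exposure group), with the mean and SD of 6 mice in black. Except for Cd22 after neutrons, every exposed mouse lay below every control mouse, and the Neutron mice lay above most or all of the other exposed mice.

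Cd79a and Cd79b encode the signalling pair of the receptor. The level of Cd79b in Control ran from 10.09 through a median of 10.63 to 10.93 on the log2 scale relative to the array median. After x-rays it ran from 4.33 through 5.45 to 8.24, and after neutrons from 8.8 through 9.01 to 9.16. The 6 Neutron mice thus lay between the groups, overlapping neither Control nor X-ray, and 1 mouse, X-ray replicate 1, stood at 8.24 when the next of its group was at 6.09. At Mixed 5% Cd79b ran from 5.57 through 6.28 to 7.34, at Mixed 15% from 4.72 through 5.42 to 7.46, and at Mixed 25% from 5.74 through 5.96 to 7.39. These 3 groups overlapped each other and the X-ray group over most of their range. The difference of Cd79b from Control was -4.86 ± 0.52 (SE, n = 6 against 6, limma adjusted p = 1.19e-05) after x-rays and -1.56 ± 0.17 (limma adjusted p = 6.7e-06) after neutrons.

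Cd79a followed the same course. Its level ran from 8.49 through 9.08 to 9.9 in Control, from 2.53 through 3.86 to 6.51 after x-rays, and from 7.61 through 7.76 to 8.35 after neutrons. The Neutron mice again overlapped no other group. Their difference from Control was -1.27 ± 0.23 (limma adjusted p = 0.000366), against -5.05 ± 0.53 (limma adjusted p = 1e-05) after x-rays. The other Cd79a probe fell as well, by 4.32 on the log2 scale after x-rays, 5.35 at 15%, and 2.11 after neutrons. At 15% it was well above background on 2 of 6 arrays, so that the size of its fall there rests on dim spots. Against the probe used, the other probe thus fell less after x-rays and more after neutrons.

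Ms4a1, Blnk, and Ly6d fell to a like degree. Ms4a1 ran from 8.55 through 8.9 to 9.15 in Control, from 2.45 through 3.58 to 7.23 after x-rays, and from 7.01 through 7.21 to 7.64 after neutrons. The highest x-ray mouse, replicate 1, lay within the Neutron range. For Blnk the range was 8.4 through 8.74 to 9.29 in Control, 3.14 through 3.98 to 6.9 after x-rays, and 6.81 through 7.05 to 7.1 after neutrons. Its Neutron group had the smallest spread of any gene and group here, with an SD of 0.11. Ly6d ran from 9.49 through 9.95 to 10.29 in Control, from 3.87 through 4.81 to 7.78 after x-rays, and from 8.2 through 8.26 to 8.66 after neutrons. In the mixed fields, Blnk had means of 4.91, 4.51, and 4.57 at 5, 15, and 25%, Ms4a1 of 5.05, 4.34, and 4.62, and Ly6d of 5.69, 5.31, and 5.48, and for each gene these groups overlapped. After x-rays Ms4a1 fell 28.4-fold, Ly6d 25.7-fold, and Blnk 20.8-fold (limma adjusted p = 5.81e-05, 1.8e-05, and 2.52e-05). Without X-ray replicate 1, the log2 difference of Ms4a1 went from -4.83 to -5.46. After neutrons the falls were 2.98-fold, 2.89-fold, and 3.38-fold (limma adjusted p = 2.87e-06, 6.19e-06, and 1.27e-06).

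Cd22 and Cd72 encode inhibitory receptors, and they fell to different degrees. Cd72 ran from 6.57 through 6.77 to 7.27 in Control, from 2.61 through 3.5 to 4.41 after x-rays, and from 4.71 through 4.88 to 5.58 after neutrons. Its 4 groups exposed to x-rays had means between 2.97 and 3.38 and overlapped. The log2 difference from Control was -3.45 ± 0.29 after x-rays and -1.88 ± 0.17 after neutrons (limma adjusted p = 2.03e-06 and 1.81e-06), which was the largest fall among the 9 genes after neutrons with the probes used. Its other probe, which overlaps the one used, gave -3.67 and -2.08. The rank depended on probe and processing. The other Cd79a probe stood at -2.11 after neutrons, and under another background correction Blnk stood at -2.84 and Cd72 at -2.63.

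Cd22 ran from 4.65 through 5.11 to 5.75 in Control, from 2.08 through 2.76 to 4.45 after x-rays, and from 4.02 through 4.34 to 4.7 after neutrons. After neutrons its range met that of the controls, and the log2 difference of -0.78 ± 0.2 (limma adjusted p = 0.00437) missed the unadjusted threshold of 0.001, so Cd22 was not called there. The 95% interval of that difference ran from -1.22 to -0.35. After x-rays, the difference was -2.26 ± 0.39 (limma adjusted p = 0.000385). The other Cd22 probe, which the annotation ties to a predicted transcript, went the other way. Taken as a feature of its own, it was called higher after x-rays, with means of -1.16 in Control and 0.39 in X-ray (limma adjusted p = 0.0013). It was not well above background on any Control array and was so on 2 of 6 X-ray arrays, so no fold is given for it. With both probes averaged, the log2 difference of Cd22 after x-rays was -0.36 and was not called. The gene's values in this text are those of the brighter one.

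Btk, the kinase downstream of the adaptor, had the smallest log2 difference from Control of the 9 genes in each exposure with the probe used. That place depended on the probe or the processing. Btk stood at -2.68 at 15% and at -1.98 after neutrons in the deposited log2 table. These values were nearer those of the other Btk probe, -2.61 and -1.76, than those of the probe used. Which probe lay behind them was not tested. Cd22 had the smaller difference after x-rays when the probes of each gene were averaged. With the probe used, Btk ran from 5.95 through 6.25 to 6.79 in Control, from 3.89 through 4.73 to 5.6 after x-rays, and from 5.38 through 5.69 to 5.8 after neutrons. X-ray and Neutron overlapped for Btk, as did all mixed fields and Neutron. Its log2 difference from Control was -1.55 ± 0.27 after x-rays, -1.13 ± 0.25 at 15%, and -0.68 ± 0.15 after neutrons (limma adjusted p = 0.000427, 0.00216, and 0.00182). The calls at 15% and after neutrons were lost when single arrays were left out, 7 and 9 of the 12 arrays, respectively, with differences then between -1.16 and -1.04 and between -0.7 and -0.59. The other Btk probe was called lower than Control after x-rays and after neutrons as well, but it was well above background on 3 of 6 X-ray arrays and 1 of 6 Neutron arrays. Dim spots of this kind give no order of the exposures, and its log2 difference of Neutron from X-ray was -0.14 (limma adjusted p = 0.818).

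**Figure D2:**
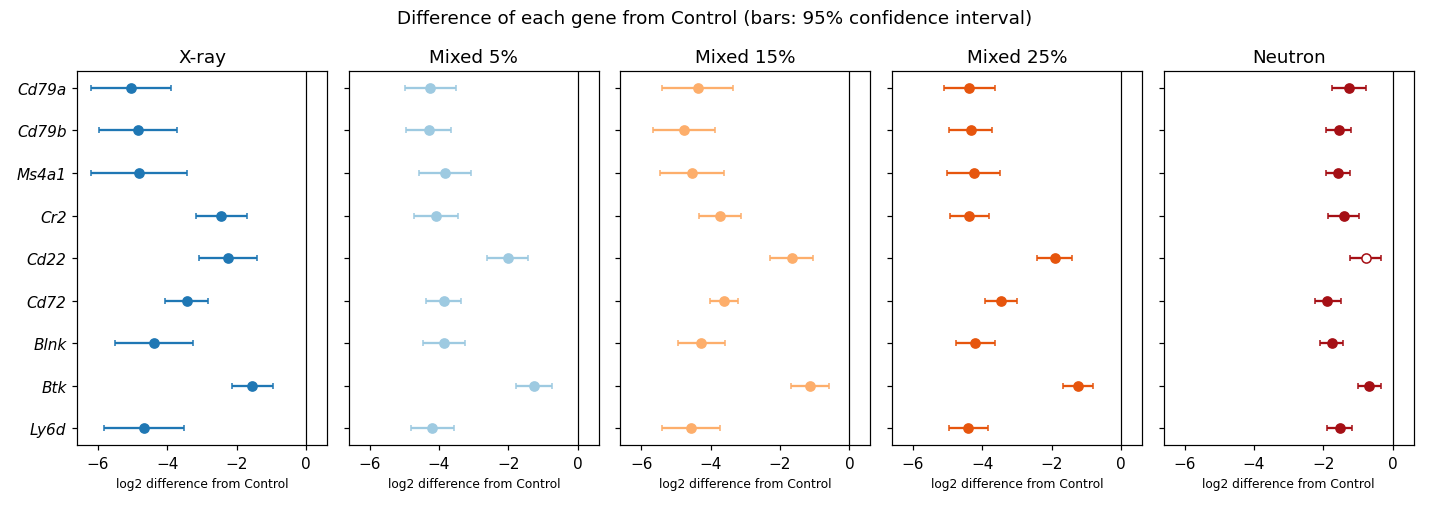
Log2 difference of each gene from Control (horizontal axis) in the 5 exposures, with its 95% confidence interval. Filled points were called and the open point, Cd22 after neutrons, was not. All points lie below 0, and all in the Neutron panel lie between -1.88 and -0.68.

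Cr2, the complement receptor, had another order of the exposures. Its level ran from 6.25 through 6.52 to 7.37 in Control, from 3.29 through 4.02 to 5.51 after x-rays, and from 4.92 through 5.29 to 5.62 after neutrons. In the mixed fields it was lower than after x-rays alone, from 1.52 through 2.77 to 3.12 at 5%, from 2.2 through 3.13 to 3.48 at 15%, and from 1.72 through 2.26 to 3 at 25%. Every Mixed 5% and Mixed 25% mouse lay below every X-ray mouse, as for 1.77 and 1.37% of all genes, and Mixed 15% overlapped X-ray. The fall from Control was 5.47-fold after x-rays, 16.9-fold at 5%, 13.3-fold at 15%, 20.7-fold at 25%, and 2.66-fold after neutrons (limma adjusted p = 9.36e-05, 4.01e-07, 7.03e-07, 7.66e-08, and 7.51e-05). For the other 8 genes each mixed field overlapped X-ray, and 7 of the 9 had mean levels above those of X-ray in each mixed field, an order that turned for up to 9 of the 27 differences under other scalings or background corrections.

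Each neutron-containing exposure was set against X-ray. The mixed fields had the same total dose as X-ray with less of it as x-rays. Added neutrons and fewer x-rays cannot be told apart there. Cr2 was the 1 member called at Mixed 25%, lower by a log2 difference of -1.92 ± 0.36 (limma adjusted p = 0.028), where 1.86% of all genes were called lower. At Mixed 5% its difference was -1.63 ± 0.39 (limma adjusted p = 0.0779), and at Mixed 15% it was -1.28 ± 0.38 (limma adjusted p = 0.0478), and neither was called. No member was called at 5% or 15%, where 0% of all genes were called lower at 5%, none were called higher, and 3503 genes had an unadjusted p below 0.05, and 2.48% were called lower at 15%. The call at 25% was lost when 6 of the 12 arrays were each left out in turn (X-ray replicates 2 and 3 and Mixed 25% replicates 1, 2, 4, and 6), with differences between -1.94 and -1.8. X-ray replicate 5 had the highest Cr2 of its group on both probes, 5.51 and 3.23, and the highest Cd22, 4.45, while X-ray replicate 1 was the highest in Cd79a, Cd79b, Ms4a1, Blnk, Ly6d, and Btk, and replicate 6 in Cd72. The other Cr2 probe also had its mixed-field means below X-ray and its Neutron mean above, and did not separate the mixed fields, with means of 4.64 in Control, 1.63 in X-ray, 0.35, 0.31, and 0.31 in the mixed fields, and 2.92 in Neutron. Its difference of Mixed 25% from X-ray was -1.32 (limma adjusted p = 0.0784 with every probe as its own feature), and it was well above background on 2, 1, and 5 of 6 arrays at 5, 15, and 25%.

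**Figure D3:**
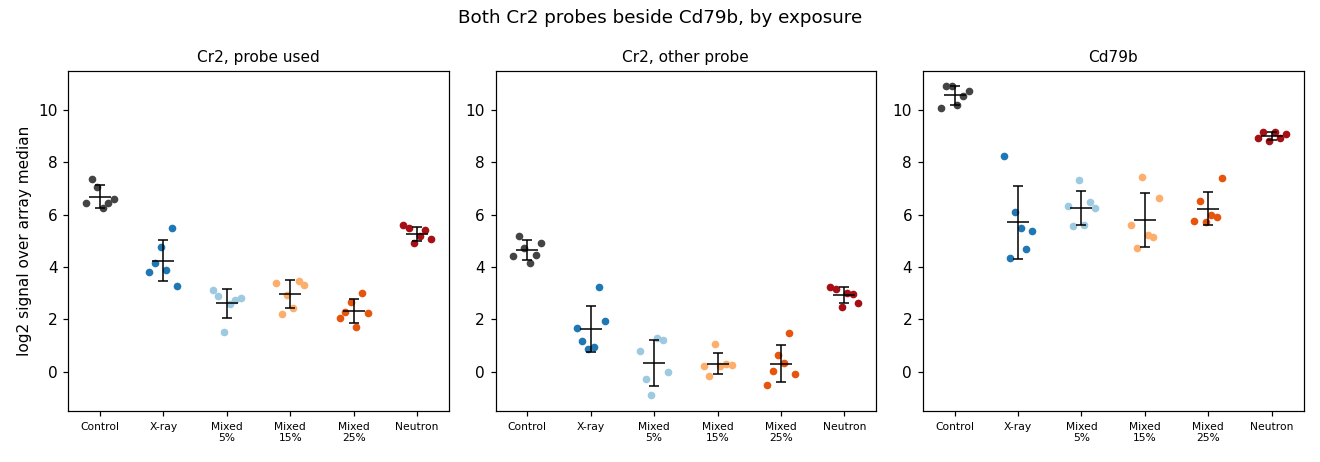
Log2 signal relative to the array median of both Cr2 probes and of Cd79b in each mouse (points), with the mean and SD of 6 mice, by exposure group. X-ray lies above the mixed fields for both Cr2 probes, with means of 4.24 against 2.32 to 2.96 for the probe used, and does not for Cd79b, with means of 5.71 against 5.8 to 6.27.

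For the other 8 genes, no difference between a mixed field and X-ray was called, and the intervals were wide. For Cd79b the 95% interval of Mixed 25% against X-ray ran from -0.67 to 1.7 on the log2 scale, and for Ms4a1 from -0.93 to 2.08. The interval of Cd72 was narrower, from -0.7 to 0.67. A difference of 2-fold in either direction would thus lie within the interval of Cd79b upwards and Ms4a1 upwards, and outside that of Cd72. The width goes with the X-ray group, whose SD was between 1.37 and 1.75 for Cd79a, Cd79b, Ms4a1, Blnk, and Ly6d, against 0.11 to 0.28 in Neutron.

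The members were higher after 0.75 Gy of neutrons alone than after 3 Gy of x-rays. Radiation type, dose, and scan session differ together between these groups and cannot be told apart. Of the 9 genes, 6 were called higher in Neutron than in X-ray, where 6.51% of all genes were called higher, and the median log2 difference of the 9 genes was 2.62, against 0.1 over all genes. Cd79a was 13.7-fold higher (limma adjusted p = 0.000222), Cd79b 9.83-fold (0.000529), Ms4a1 9.53-fold (0.00245), Ly6d 8.9-fold (0.000879), Blnk 6.15-fold (0.00235), and Cd72 2.98-fold (0.00186). The other Cd79a probe was 4.64-fold higher (limma adjusted p = 0.00372 with every probe as its own feature), so the size for Cd79a depended on the probe. All 6 Neutron mice were above all 6 X-ray mice for 4 genes, Cd79a, Cd79b, Cd72, and Ly6d, as they were for 6.53% of all genes. Cd22, Cr2, and Btk had log2 differences of 1.48, 1.04, and 0.87 that missed the unadjusted threshold (limma adjusted p = 0.00864, 0.0288, and 0.0211). Without X-ray replicate 5, Cd22 and Cr2 were called, at 1.79 and 1.29, and without X-ray replicate 1, Btk was called, at 1.04, and the difference of Ms4a1 went from 3.25 to 3.89.

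At the same neutron dose, the members were higher without x-rays than with them. In Neutron against Mixed 25%, 8 of the 9 genes were called higher, where 4.03% of all genes were, and for the same 8 genes every Neutron mouse was above every Mixed 25% mouse, as for 3.54% of all genes. Cd79a was 8.56-fold higher, Cr2 7.77-fold, Ly6d 7.32-fold, Cd79b 6.87-fold, Ms4a1 6.39-fold, Blnk 5.45-fold, Cd72 3.02-fold, and Cd22 2.19-fold (limma adjusted p between 6.69e-06 and 0.00119). The other Cd79a probe was 6.05-fold higher. Btk was 1.48-fold higher with an adjusted p of 0.0332 by limma and was not called. The comparison with X-ray and the comparison with Mixed 25% share the Neutron arrays. Both groups lay in 1 scan session, but mostly on different slides. Only slide 8 held both, with 2 arrays of each, and on it the log2 differences were 2.43 for Cd79a, 2.38 for Cd79b, 2.02 for Ms4a1, 2.24 for Blnk, 2.59 for Ly6d, 1.78 for Cd72, 0.85 for Cd22, 2.94 for Cr2, and 0.75 for Btk. With the slide as a block, 6 of the 9 genes were called higher in Neutron, and Cd22 and Ms4a1 were no longer called.

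The scan sessions bear on the other comparisons. Session 1 held 5 Control and 5 X-ray arrays, session 2 held 5 Mixed 5% and 5 Mixed 15% arrays, session 3 held all Mixed 25% and Neutron arrays, and session 4 held 1 array each of Control, X-ray, Mixed 5%, and Mixed 15%. Within session 1 the log2 differences of X-ray from Control were -4.86 for Cd79a, -4.72 for Cd79b, -4.6 for Ms4a1, -4.3 for Blnk, -4.52 for Ly6d, -3.67 for Cd72, -2.2 for Cd22, -2.19 for Cr2, and -1.59 for Btk. Control and X-ray shared slide 2, with 2 arrays of each, and slide 10, with 1 of each. With the slide as a block, 7 of the 9 genes were called lower after x-rays, and Btk and Cd22 were not. Within session 4, where 1 array stood against 1, Mixed 5% lay below Control by a log2 difference of -4.67 in Cd79a and -4.31 in Cr2, and Mixed 15% by -3.89 and -4.12. In that session Cr2 at Mixed 5% and 15% lay below X-ray by -0.55 and -0.36. For Mixed 25% and Neutron against Control or X-ray, session and exposure cannot be told apart. With the session as a term, 9 of the 9 genes were called lower after x-rays, 6 at Mixed 5%, and 2 at Mixed 15%, and at 5 and 15% that fit draws its difference from the 2 arrays that share session 4.

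Beyond the group differences, some of the genes varied together between mice and others did not. After the mean of each group was subtracted, Cd79a, Cd79b, Ms4a1, Blnk, and Ly6d correlated with each other at r between 0.89 and 0.98 over 36 arrays. Btk correlated with these 5 at r between 0.47 and 0.53. Cr2 correlated with Cd22 at 0.47 and with the other genes at between -0.26 and 0.14, and Cd72 correlated with Btk at 0.53. Among all genes tested, those most like the mean of the 9 genes were Pou2af1 (r = 0.97), Bank1 (0.95), Gm4610 (0.94), Fcrla, Spib, and H2-Ob (0.93 each), and AF138742 and ENSMUST00000103749 (0.92 each). The values are descriptions, since all genes of an array share its blood sample, its hybridization, and its centring. The genes differed in which groups held the spread. For Cd79b the SD was largest in X-ray and Mixed 15%, at 1.39 and 1.04, while for Cd72 it was smallest at Mixed 15%, at 0.18.

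**Figure D4:**
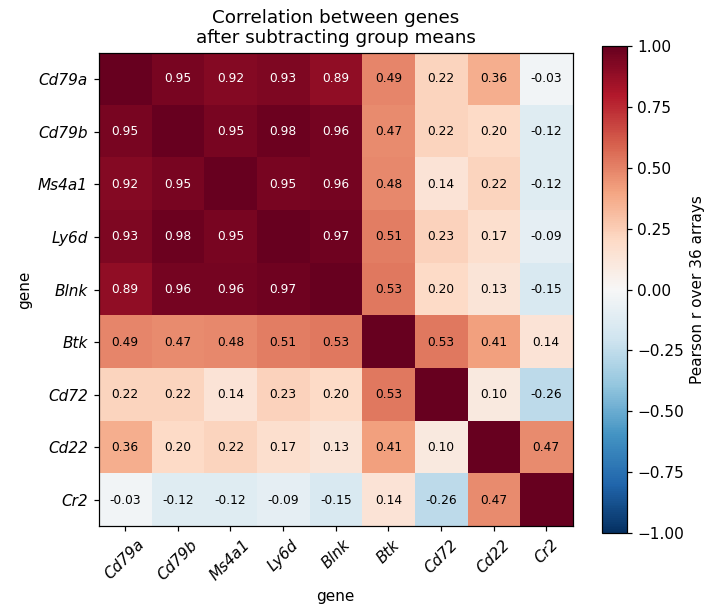
Pearson r between each pair of the 9 genes over 36 arrays, after the mean of each group was subtracted. The genes along both axes are ordered so that the block of Cd79a, Cd79b, Ms4a1, Ly6d, and Blnk, with r of 0.89 or more, lies at the upper left, and Cr2, with r between -0.26 and 0.47, lies last.

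Other genes of the receptor pathway were tested in the same fits. Counts of their calls after x-rays, at 5, 15, and 25%, and after neutrons stand beside 16.9, 14.1, 16.5, 13.9, and 20.5% of all genes called lower and 12.9, 9.03, 12.6, 10.9, and 16.1% called higher. Of 25 further receptor signalling genes, 20 were tested, and 13 fell and none rose after x-rays, 8 fell at 5%, 8 at 15%, 11 at 25%, and 9 after neutrons. Their median log2 difference was -1.2 after x-rays and -0.69 after neutrons. Bank1, a B-cell scaffold protein, fell 20.5-fold after x-rays and 3-fold after neutrons. Blk, a B-cell kinase of the Src family, fell 13.8-fold and 3.04-fold, and Rasgrp3, a Ras activator, 9.27-fold and 4.86-fold. Cd81, a membrane protein that many cell types express, was called in no exposure, with log2 differences between -0.22 and 1.22. Lyn, the kinase that acts on both activating and inhibitory receptors, and Bcl10, an adaptor, were called in none either, with differences between -0.9 and -0.35 and between -0.92 and -0.26.

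Of 8 further inhibitors, 7 were tested, and 3 fell after x-rays, 3 in each mixed field, and 2 after neutrons. Siglecg, an inhibitory lectin related to CD22, fell 7.81-fold after x-rays, 13.6-fold at 5%, 16-fold at 15%, 12.5-fold at 25%, and 3.4-fold after neutrons. Ptpn6, the phosphatase that CD22 and CD72 recruit, fell 2.7-fold after x-rays and 2.35-fold after neutrons. Csk, a kinase that restrains Src-family kinases, was called after x-rays alone, with a log2 difference of -1.36, and stood at 0.78 after neutrons. Cd5, a receptor of T cells and some B cells, was called in the mixed fields alone, lower by -1.64, -1.29, and -0.88 at 5, 15, and 25%. After x-rays Cd5 had a difference of -0.89 (limma adjusted p = 0.00339), as large as at 25%, that missed the threshold. Fcgr2b, the inhibitory Fc receptor, was called in no exposure and had log2 differences between -0.8 and -0.35. The phosphatase gene Ptpn22 and Pirb, an inhibitory receptor, were not called either, with differences between -0.61 and -0.07 and between -0.38 and -0.05. Of 8 other TEC kinases and adaptors, 7 were tested, and 2 fell after x-rays, 3 at 5 and at 15%, 2 at 25%, and 3 after neutrons, out of too few genes to set these counts apart from the shares of all genes. Tec, a relative of Btk, fell 3.76-fold after x-rays and 1.83-fold after neutrons, and Bmx, another relative, was called in none. Lat2, an adaptor of B cells and myeloid cells, had log2 differences between -1.33 and -0.83 and was called in each exposure other than x-rays alone. Its difference after x-rays, -1.33, was the largest of these and was not called. Lat, an adaptor of T cells, was called lower after neutrons alone, by -1.18, with a mean level of 4.44 there, 4.49 at 5%, and 5.62 in Control. Txk and Clnk were called in none, with differences between -0.92 and -0.23 and between 0.28 and 1.21.

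Genes of early B-cell stages and of plasma cells split. Of all genes, 16.9, 14.1, 16.5, 13.9, and 20.5% were called lower after x-rays, at 5, 15, and 25%, and after neutrons. In the mixed fields 9.03, 12.6, and 10.9% were called higher. Each list had 6 genes tested, too few to set its counts apart from these shares. Vpreb3, expressed in B-cell precursors, fell by 4.44 on the log2 scale after x-rays and by 4.19 at 25%, and after neutrons it had a difference of -0.47 ± 0.18 (limma adjusted p = 0.0353) that was not called. Of 10 early B-cell genes 6 were tested, and 3 fell after x-rays and in each mixed field, 1 rose at 25%, and 1 fell after neutrons. The gene that rose was Cd93, by 1.1, and Sox4, a transcription factor, was the one that fell after neutrons, by 1.22. Il7r, the receptor of interleukin-7, was lower after x-rays by a log2 difference of -1.44 and had a difference of -0.91 after neutrons that was not called. Vpreb1 and Dntt were called in no exposure, with differences between -0.08 and 1.02 and between -1 and -0.44. Of 8 plasma cell genes 6 were tested, and 2 fell after x-rays and in each mixed field, 3 fell after neutrons, and 1 rose in each mixed field. Sdc1, the plasma cell marker CD138, had another order. Its log2 difference from Control was -2.82 ± 0.36 after neutrons (limma adjusted p = 2.71e-05), between -1.31 and 0.64 and not called in the other exposures, and -3.46 ± 0.7 in Neutron against Mixed 25% (limma adjusted p = 0.0031). In that last comparison 8 of the 9 receptor genes were called higher. Irf4, a transcription factor of activated B cells and plasma cells, fell 3.75-fold after x-rays and 2.1-fold after neutrons. Mzb1, a chaperone of immunoglobulin assembly, fell 8.54-fold after x-rays and 2.38-fold after neutrons, while Xbp1, a regulator of secretion, was higher by 1.14, 1.29, and 1.06 at 5, 15, and 25% (limma adjusted p = 0.00286, 0.000824, and 0.00224). Jchain, which joins secreted immunoglobulin, was the 1 of 19 immunoglobulin names that was tested, and it had differences from Control between 0.49 and 2.03 and was not called. Derl3 and Prdm1, both linked to secretory cells, were called in no exposure, with differences between -1.05 and -0.09 and between -0.55 and 0.45.

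Markers of other blood cells were read in the same samples. The mean level of 10 red-cell genes ran from 7.62 to 8.04 in Control, 9.02 to 9.99 in X-ray, 8.26 to 10.05 at 5%, 9.08 to 10.51 at 15%, 8.77 to 10.62 at 25%, and 9.06 to 9.52 in Neutron, and 6 of the 10 rose after x-rays and 9 after neutrons, beside 12.9 and 16.1% of all genes. The 10 include globin genes, whose RNA the methods of the study reduced before labelling. The bearing of that step on these counts was not tested. Of 14 T-cell genes, 4 fell after x-rays and 2 after neutrons, where 16.9 and 20.5% of all genes fell, with a mean level of 5.27 to 6.03 in Control, 4.31 to 5.16 in X-ray, and 4.67 to 5.81 in Neutron. Of 16 other B-cell markers, 15 fell after x-rays and 14 after neutrons, with a mean level of 5.55 to 6.33 in Control, 0.79 to 3.65 in X-ray, and 4.37 to 4.7 in Neutron. None of 9 NK-cell genes was called after x-rays or after neutrons, and their mean level was 4.44 to 5.48 in Control, 4.51 to 5.62 in X-ray, and 4.44 to 5.52 in Neutron. Of 10 neutrophil genes, Ltf and Camp rose in all 5 exposures, by 4.35 and 3.29 after x-rays. Of all genes, 12.9, 9.03, 12.6, 10.9, and 16.1% rose after x-rays, at 5, 15, and 25%, and after neutrons. Another 1 of the 10 neutrophil genes fell at 15%, at 25%, and after neutrons, where 16.5, 13.9, and 20.5% of all genes fell. The mean level was 4.77 to 6.59 in Control, 5.95 to 7.31 in X-ray, and 5.57 to 6.69 in Neutron. Of 10 platelet genes none was called after x-rays or at 5%, 4 rose at 15%, 5 at 25%, and 1 after neutrons. Of all genes, 12.6, 10.9, and 16.1% rose at 15%, at 25%, and after neutrons. Of 9 monocyte genes none was called after x-rays, 1 rose at 5%, 1 fell at 25%, and 2 rose after neutrons. Of all genes, 9.03% rose at 5%, 13.9% fell at 25%, and 16.1% rose after neutrons. The 9 genes are too few to set these counts apart from those shares. Each array was centred on its own median, and the part of these other cells in the falls of the 9 genes was not tested.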

How the data were processed

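The authors deposited linear-scale scanner intensities for every array; per the file headers, Agilent Feature Extraction 12.0.2 had subtracted background within the array. A table of normalized, filtered log2 values that the authors deposited served as an alternative. With R 4.3.3 and limma 3.58.1, intensities were log2-transformed without non-uniform spots, averaged per probe, and centred by subtracting the array median. A probe was kept when over 75% of arrays had it uniform and significant against background, and when 20% of arrays or more deviated by 1.5-fold from its median. The brightest probe represented a gene. Each of 10 comparisons was fitted with limma (lmFit and eBayes) on its 12 arrays. A call needed an unadjusted p under 0.001 and a Benjamini-Hochberg p under 0.05, as in the methods of the study, which used a random variance test in BRB-ArrayTools and median normalization. Where ranges of 6 against 6 mice did not meet, the exact two-sided permutation p was 0.00216, the smallest this design allows. The 36 arrays are 36 animals, and their number limits the precision.

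Genes carry the names of the array design, 11290 of 15065 of which a RefSeq table also lists. All members are described. From each list of the receptor pathway, early B cells, plasma cells, and immunoglobulins, the genes named are those called in at least 1 exposure, up to 4 by the size of their change after x-rays, and up to 3 tested genes that were never called. Of the cell-type marker lists, Ebf1, Ltf, and Camp were named after their values were seen. The members and lists were chosen with earlier results of these data known. The file headers gave the slide and scan session of each array. Alternatives were 4 other scalings or background corrections, other filters and ways to combine probes, the deposited table, 1 model over 36 arrays, blocks for replicate number, slide, and session, the adjusted p alone, and leaving out each array. Figures were drawn with matplotlib 3.10.9. No column was without a sample. Some genes that the rule for named genes would include are not reported here.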

Additional observations from a re-analysis of the deposited data

Results flagged for a closer look

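The highest and the lowest mouse of each group were compared with the nearest other mouse, for the 9 genes in 6 groups, which makes 54 tests. In 3 of them the gap was too large a share of the range of the group by Dixon’s 95% limit for 6 values, and chance alone would pass about 1 group in 20. Cd72 in Neutron replicate 4 was high, at 5.58 against 4.91 for the next mouse, a gap of 0.77 of the range. Blnk in Neutron replicate 3 was low, at 6.81 against 7.02, a gap of 0.724 of the range. Cr2 in Mixed 5% replicate 3 was low, at 1.52 against 2.59, a gap of 0.669 of the range. None of the 3 mice stood out in a second gene by this measure. X-ray replicate 1, the highest of its group in 6 of the 9 genes, was not among them.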

How the results depend on the processing

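No fit at the gene level turned the sign of a called difference of any of the 9 genes. Against Control, 563 of 612 differences stayed on the same side of the threshold, called or not, 47 lost their call, and 2 gained one over the alternatives other than leaving out arrays. The replicate number did not pair the arrays: same-numbered arrays of different groups had deviations that correlated at a mean r of 0.0376 over 90 pairs, against -0.0063 over 450 other pairs. With a replicate block, 9, 8, 8, 9, and 7 of the 9 genes were called lower after x-rays, at Mixed 5, 15, and 25%, and after neutrons, and against X-ray or Mixed 25% the block changed no call. Each probe as its own feature gave 14 probes called after x-rays, 1 of them higher, the other Cd22 probe, against the called fall of its gene. With the slide as a block, 1 member was called at Mixed 5% and 1 at Mixed 15% against Control, and with the scan session as a block 2 at Mixed 15%; these fits draw the difference from 1 array of each group by construction. The slide as a block left 7 called after x-rays (without Btk and Cd22) and 6 for Neutron against Mixed 25% (without Cd22 and Ms4a1). In 1 model over 36 arrays, 3 were called after neutrons, and 1 each at Mixed 5% and Mixed 15% against X-ray. At the adjusted p alone, Mixed 15% against X-ray had 1, Cr2. After normexp correction, 0 were called in Mixed 25% against X-ray, Neutron against X-ray, or Neutron against Mixed 25%, and 0, 2, and 242 genes were called in all. The deposited log2 table gave 0 for Mixed 25% against X-ray. Other scalings moved the median of all genes by -1.13 to 0.55 against Control; the median of the 9 genes less that median was between -4.67 and -3.78 after x-rays and between -1.77 and -1.41 after neutrons. Leaving out each array gave 9 to 9 members called after x-rays, at Mixed 5%, and at Mixed 25%, 8 to 9 at Mixed 15%, 7 to 8 after neutrons, 0 to 0 at Mixed 5% and Mixed 15% against X-ray, 0 to 1 at Mixed 25% against X-ray, 6 to 8 for Neutron against X-ray, and 8 to 8 for Neutron against Mixed 25%. The cause of the changes under the single model and normexp was not tested. Dim spots limit the second probes of Cr2, Cd22, Cd79a, and Btk.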
